A study of Rattus norvegicus with 156 samples.

Results

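Sciatic nerve taken at mid thigh was compared between 2 RNA pools from the side of a spinal nerve ligation and 7 pools from nerves that were not ligated, so 9 of the 52 RNA samples of the series were used. The ligated pools were the ipsilateral nerves of rats with spinal nerve ligation (SNL) given saline vehicle and of rats with SNL given gabapentin (GPN), an anticonvulsant drug used against neuropathic pain. The 7 uninjured pools were the ipsilateral nerves of naive rats with vehicle, naive rats with GPN and sham-operated rats with vehicle, and the contralateral nerves of those 3 treatments and of SNL rats with GPN. In SNL the L5 and L6 spinal nerves are tied, upstream of the sciatic nerve, so the tissue measured lay beyond the ligature and was not itself tied. Sham rats had the nerves exposed, and naive rats had no surgery. Tissue was taken 19 to 21 days after surgery. Vehicle or 100 mg per kg GPN had been injected into the peritoneum daily for 7 days, and only SNL rats with reduced paw withdrawal thresholds had been kept. Each pool held 4 to 6 rats. The RNA was hybridised to the Affymetrix U34 set for rat (types A, B and C), which made 27 arrays for the nerve pools. Strain, sex and age were not given in the sources used here. There was 1 pool for each treatment and side, and whether both sides of a treatment came from the same rats was not given either, so p-values measure the spread between these pools.

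Axons cut off from their cell bodies degenerate beyond the injury, and the Schwann cells that wrapped them lose contact with the axon. In this state Schwann cells are known to turn off myelin genes and to take on a repair state marked by Jun, Sox2 and the low-affinity neurotrophin receptor Ngfr, while macrophages clear myelin debris. Making myelin needs a large supply of cholesterol, which Schwann cells synthesise themselves. The sciatic nerve also carries axons of spinal nerves that were not tied in this model, so tied and untied fibres run side by side in the samples. In pooled tissue, fewer cells of a type and less RNA per cell cannot be told apart.

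All 3 arrays of each pool gave a signal, an intensity in arbitrary units that is given here after quantile normalization over the 9 nerve arrays of each type. Changes are differences of mean log2 (signal plus a pseudocount of 4.5 to 6.2, by array), ligated minus uninjured, from limma with Benjamini-Hochberg adjustment over 17832 probe sets, each with its standard error (SE). A gene is represented by its brightest probe set. Median deposited signals differed up to 41 against 16 between arrays of type A, and the A array of the contralateral SNL with GPN pool had that highest median. The log2 signals of the ligated pools correlated at 0.964 with each other and at 0.871 to 0.918 with the uninjured pools, while uninjured pools correlated at 0.925 to 0.964 among themselves. Nerve markers were present in all pools: the signals of the myelin genes Pmp22, Mbp and Prx were at least 5663, 3259 and 1151. Skeletal muscle RNA was also present and uneven. The summed signal of 29 muscle genes was 1253 in the SNL pool and 12382 in the SNL with GPN pool, against 10112 to 45559 in the uninjured pools with a median of 15940. The ratio of 3' to 5' GAPDH probe sets, a measure of RNA integrity, was 1.73 and 1.71 in the ligated pools, against 1.64 to 8.0 in the uninjured pools.

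**Figure D1:**
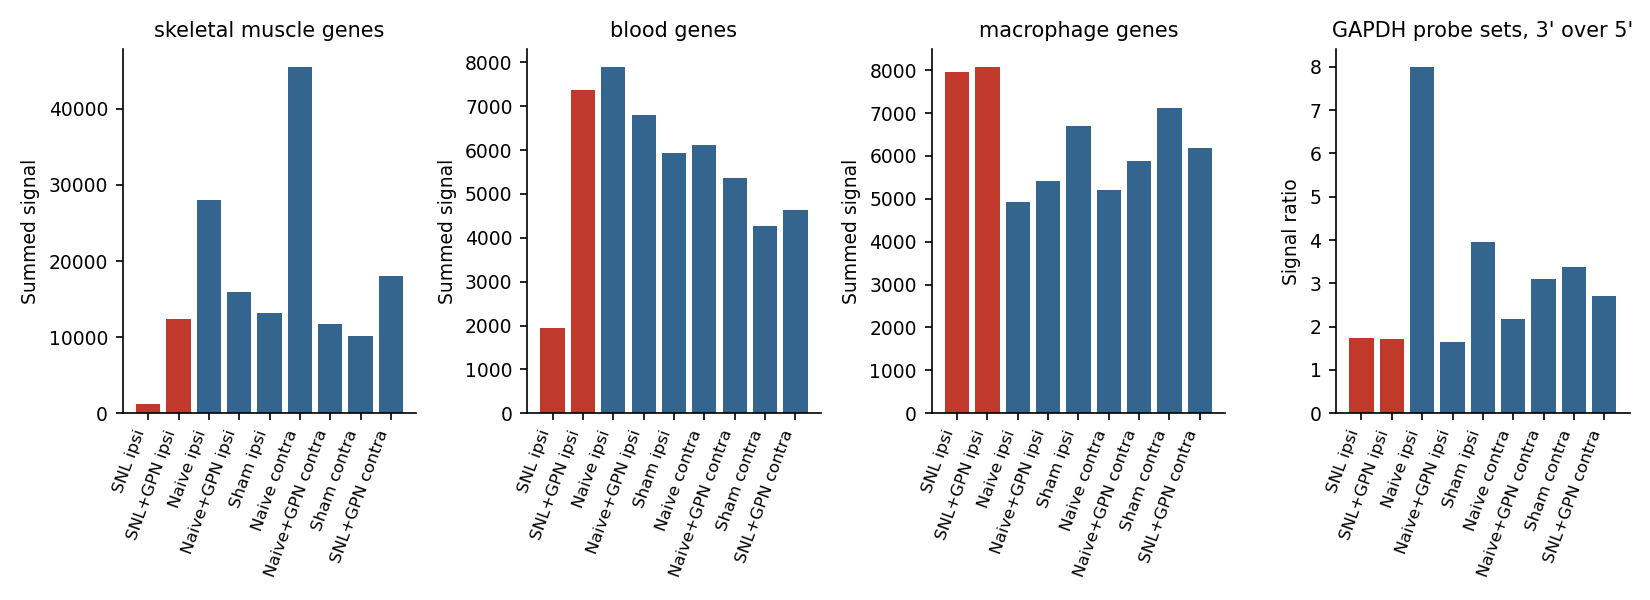
Each bar is 1 sciatic nerve pool, the 2 ligated pools in red at the left and the 7 uninjured pools in blue. The panels show summed signal of the tested skeletal muscle, blood and macrophage genes and the signal ratio of 3' over 5' GAPDH probe sets. The SNL pool has a muscle sum of 1253 and a blood sum of 1947, the lowest of the 9 pools in both, while the macrophage sums of 7959 and 8084 in the ligated pools are the highest.

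Of 17832 probe sets tested, 784 were higher in ligated nerve (4.4%) and 856 were lower (4.8%), 9.2% in either direction. With the deposited scaling of the arrays in place of quantile normalization the calls were 556 higher and 278 lower, and the median change over all probe sets was 0.23 on the log2 scale, against 0.01 with quantile normalization. The share of calls that were higher was 66.7% with that scaling and 47.8% with quantile normalization. Every one of the 1640 calls had the same sign under the deposited scaling and under scaling to the median. Represented by 1 probe set each, 363 of 9033 genes were higher (4.02%) and 504 were lower (5.58%), and in 4 of these 867 genes the ligated pools overlapped the uninjured ones. Both ligated pools lay above all 7 others in 12.0% of probe sets and below all 7 in 11.4%. The counts rest on both ligated pools: 185 and 262 probe sets were called without the SNL pool, and 234 and 375 without the SNL with GPN pool. The muscle level as a covariate left 324 and 465 calls, and the GAPDH ratio as a covariate left 408 and 433. Leaving out the 3 uninjured pools of highest GAPDH ratio left 626 and 676, and both GAPDH alternatives were chosen after seeing the data. Of 140 named genes that were called, 86 kept their call with the muscle covariate, 100 with the GAPDH covariate and 115 without those 3 pools. Other alternatives were harsher. The fewest kept their call with treatment as a fixed block with side, and 26 were called under every alternative.

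The 5 genes taken as markers of the ligated nerve separated the groups fully: Ngfr, Sema3e and Sox2 were higher and Prx and Sqle lower in both ligated pools than in any other. Ngfr, the receptor for neurotrophins on repair Schwann cells, had a signal of 1300.0 in the SNL pool and 1155 in the SNL with GPN pool, against 60.7 to 111 in the uninjured pools with a median of 85.8. Sema3e, a secreted semaphorin that binds plexin D1, had 213 and 192 in those ligated pools, against 6.14 to 10.5 in the uninjured pools with a median of 9.0. Sox2, a transcription factor that holds Schwann cells immature, had 339 and 311, against 28.2 to 34.2 with a median of 31.8. Each ligated pool stood above every uninjured pool for all 3 genes, and the ligated pools differed little from each other. On the log2 scale Ngfr rose by 3.80 (SE 0.22, adjusted p = 2.54e-06), Sema3e by 3.83 (SE 0.17, adjusted p = 3.29e-07) and Sox2 by 3.13 (SE 0.14, adjusted p = 3.29e-07). Of the other Sox2 probe sets, 1 rose by 2.60 and 1 had a change of -0.22 that did not pass. The uninjured signals of Sema3e are close to the pseudocount, so the size of its change depends on the pseudocount.

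Both other markers were lower. Periaxin, encoded by Prx, links compact myelin to the basal lamina, and its signal was 1190.4 in the SNL pool and 1151 in the SNL with GPN pool, against 2734 to 4001 in the uninjured pools with a median of 3529. Squalene epoxidase, encoded by Sqle, is a rate-limiting step of cholesterol synthesis. Its signal was 70.8 and 68.7 in the ligated pools, against 273 to 355 in the uninjured pools with a median of 326. The highest ligated pool was therefore below the lowest uninjured pool for both. Prx fell by 1.48 on the log2 scale (SE 0.17, adjusted p = 1.97e-04) and Sqle fell by 2.11 (SE 0.14, adjusted p = 6.54e-06). These 5 markers were chosen with earlier results of these data known.

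**Figure D2:**
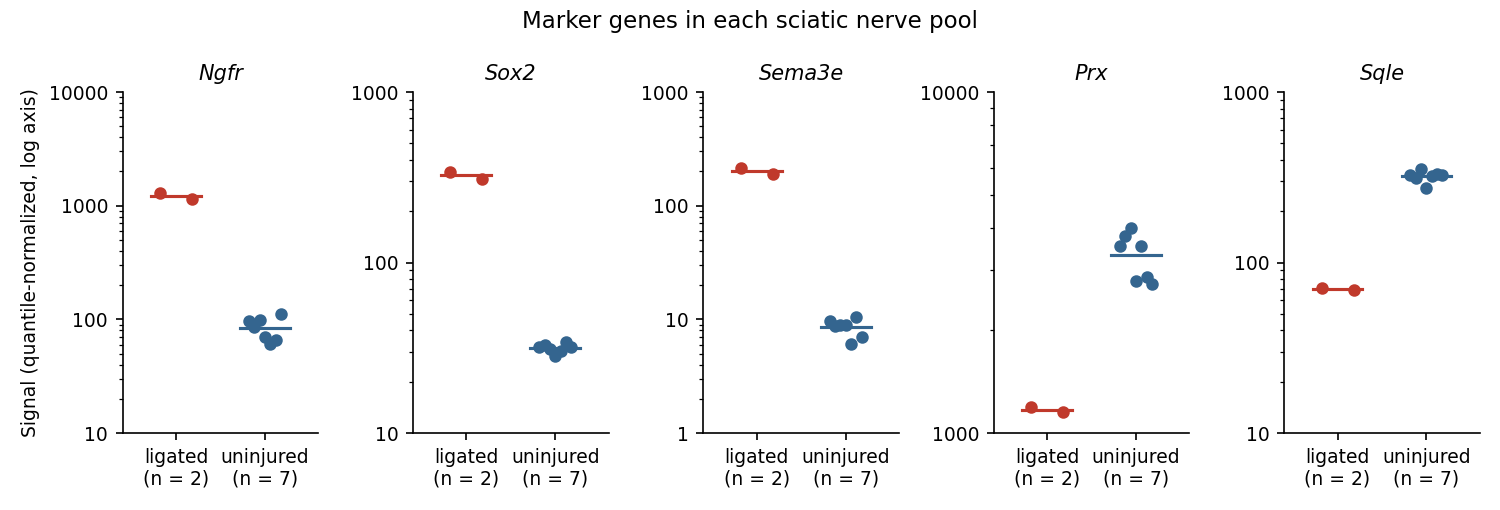
Quantile-normalized signal on a log axis for 5 marker genes. Each point is 1 nerve pool, the 2 ligated pools in red at the left and the 7 uninjured pools in blue, and lines are group means. Ngfr, Sox2 and Sema3e are higher and Prx and Sqle lower in both ligated pools than in any uninjured pool.

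Genes of the repair Schwann cell state were mostly higher or did not pass. Of 36 tested members, 16 rose and 1 fell, and 19 did not pass. The median change was 0.64, against -0.01 over all genes. Among transcription factors, Atf3, which is induced by nerve injury, had 906 in the SNL pool and 921 in the SNL with GPN pool, against 87.2 to 159 in the uninjured pools, and rose by 2.94 (SE 0.21, adjusted p = 1.09e-05). Jun, which drives the repair programme in mouse Schwann cells, had 758 and 700.2 in the ligated pools, against 142 to 269.6, and rose by 1.84 (SE 0.21). The SRY-box factor Sox4 had 631 and 599.7, against 126 to 161, and rose by 2.07. Its other probe sets rose too, except 1 with a change of -0.23 that did not pass. For Atf3, Jun and Sox4 no uninjured pool reached the lower ligated pool. Fos and Notch1 rose by 0.94 and 0.73.

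Receptors and growth factors of the same list moved in both directions. Gfra1, a co-receptor for glial cell line-derived neurotrophic factor, had 754 in the SNL pool and 773 in the SNL with GPN pool, against 109.8 to 134 in the uninjured pools, and rose by 2.61 (SE 0.14, adjusted p = 1.78e-06). The neuregulin receptor genes Erbb3 and Erbb2, through which axons signal to Schwann cells, rose by 1.69 (SE 0.22) and 1.29 (SE 0.23). Igf2, an insulin-like growth factor, had 402 and 488 in the ligated pools, against 107 to 167, and rose by 1.76. Ciliary neurotrophic factor, Cntf, a product of myelinating Schwann cells, was the 1 member that fell: it had 294 and 353 in the ligated pools, against 616 to 1085, a change of -1.26 (SE 0.21, adjusted p = 0.00218). Gdnf was at a signal of 3.9 and 12.0 in the ligated pools, against 1.99 to 17.1, with a change of -0.03, and Bdnf had a change of 0.38 that did not pass. Growth-associated protein Gap43 rose by 1.51 and the intermediate filament gene Nes by 0.96, while Vim had a change of 0.24 that did not pass. Without the SNL pool 9 members of the list rose and without the SNL with GPN pool 10 did. With the muscle level as a covariate 10 rose, and with the GAPDH ratio as a covariate 15 rose.

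**Figure D3:**
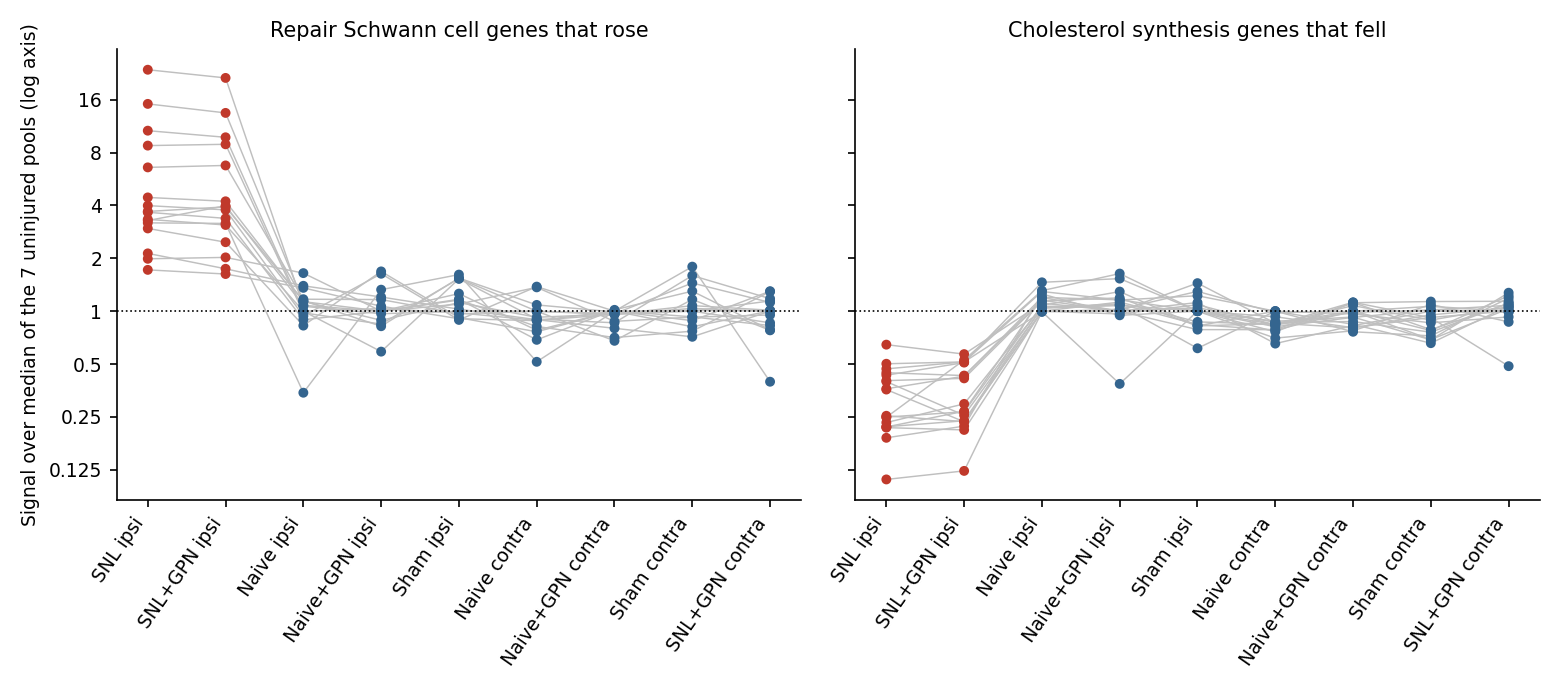
Signal of each gene divided by its median over the 7 uninjured pools, on a log axis, for the repair Schwann cell genes that rose (left) and the cholesterol synthesis genes that fell (right). Each line is 1 gene and each column 1 nerve pool, with the 2 ligated pools in red at the left and the uninjured pools in blue. Both ligated pools lie above all uninjured pools for the repair genes shown and below all of them for the cholesterol genes shown.

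Myelin genes were lower in part. Of 28 tested members, 12 fell, 1 rose and 15 did not pass, with a median change of -0.71. Mal, a proteolipid of myelin membranes, had 469 in the SNL pool and 445 in the SNL with GPN pool, against 1372 to 2158 in the uninjured pools, and fell by 1.92 (SE 0.17, adjusted p = 3.39e-05). Cryab, a small heat shock protein of myelinating Schwann cells, had 465 and 646, against 2028 to 2616, and fell by 2.09 (SE 0.16). Cldn19, the claudin of Schwann cell tight junctions, had 171 and 160.4, against 321 to 802, and fell by 1.71 (SE 0.28). For these 3 genes the ligated pools lay wholly below the uninjured ones. Ugt8, which makes the myelin lipid galactosylceramide, fell by 1.42, Pllp by 1.27, Aspa by 1.19, the adhesion molecule Mag by 1.18 and the gap junction gene Gjb1 by 0.92. Cd9, Ermn and S100b fell by 0.82, 0.71 and 0.69. Another S100b probe set had a change of 0.14 that did not pass.

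Other myelin genes did not pass or rose. Mbp, a structural protein of compact myelin, had 3929 in the SNL pool and 3259 in the SNL with GPN pool, against 4332 to 4921 in the uninjured pools, a change of -0.38 (SE 0.13) that did not pass (adjusted p = 0.0980). Pmp22 had 5663 and 5951 in the ligated pools, against 6973 in each of the 7 uninjured pools, with a change of -0.26 that did not pass. Quantile normalization gives the brightest probe set of every array the same value, so the values of Pmp22 have an upper limit there and the size of its change is not known. Among the regulators, Egr2, which switches on myelin genes, had 163 and 195, against 216 to 435, with a change of -0.78 that did not pass (adjusted p = 0.0586). Pou3f1, a factor of promyelinating Schwann cells, had 60 and 50.1, against 19.4 to 34.6, and was the 1 member that rose (0.98, SE 0.20, adjusted p = 0.00918). Sox10, which marks the Schwann cell lineage, had 261 and 258, against 117 to 241, with a change of 0.80 that did not pass. Without the SNL pool 6 myelin genes fell, without the SNL with GPN pool 5, with the muscle level as a covariate 6, with the GAPDH ratio as a covariate 6 and with the deposited scaling 7.

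Most cholesterol synthesis genes were lower. Of 22 tested members, 18 fell, 4 did not pass and none rose, and the median change was -1.15. Both ligated pools lay below all uninjured pools for 20 of the 22. The sequence of steps was covered from the first to the last. Acat2, which joins acetyl groups at the start, had 193 in the SNL pool and 126 in the SNL with GPN pool, against 453 to 606 in the uninjured pools, and fell by 1.71 (SE 0.18). Idi1, the isomerase that makes the isoprenoid building blocks, had 65.0 and 72.7, against 228 to 672 with a median of 590.5, and fell by 2.82 (SE 0.34, adjusted p = 2.48e-04). Both ligated pools were under the lowest uninjured pool, naive with GPN on the ipsilateral side, which stood apart from the other 6.

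Mvk, Pmvk and Mvd of the mevalonate steps fell by 1.07, 1.16 and 1.01. Fdps and Fdft1, which build farnesyl diphosphate and squalene, fell by 1.15 and 1.18. Lss, which closes the sterol ring after Sqle has acted, had 75.3 and 81.4 in the ligated pools, against 236 to 377 in the uninjured pools, and fell by 1.92 (SE 0.19). Cyp51, the lanosterol demethylase, had 141 and 173, against 419 to 768, and fell by 1.93 (SE 0.21). The later enzymes Msmo1, Tm7sf2, Nsdhl, Hsd17b7, Ebp and Sc5d fell by 1.91, 1.80, 1.62, 1.04, 0.60 and 0.97. Dhcr7, which makes the last step of one branch, had a change of -0.59 that did not pass (adjusted p = 0.0533).

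The regulators of the pathway were split. Insig1, which holds sterol regulatory element-binding proteins in the endoplasmic reticulum and is itself a target of theirs, had 77.9 in the SNL pool and 90.8 in the SNL with GPN pool, against 334 to 513 in the uninjured pools, and fell by 2.20 (SE 0.17, adjusted p = 1.48e-05). Its relative Insig2 had 23.2 and 16.3, against 16.4 to 30.5, an overlap of the groups and a change of -0.22. Srebf2, the transcription factor of the pathway, had 112 and 99.5, against 118 to 206, with a change of -0.65 that did not pass (adjusted p = 0.0566). Stard4, a sterol carrier, fell by 1.08. The count of falls was 11 without either ligated pool in turn, 13 with the muscle level as a covariate, 14 with the GAPDH ratio as a covariate and 11 with the deposited scaling.

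Since these genes moved together, their promoters were read from RefSeq windows of 300 bases, 250 before to 50 after the gene start, build GRCr8, which were listed for 14 of the 18 genes that fell. The CCAAT box, the letters CCAAT on either strand, bound by nuclear factor Y, was in 12 of these 14 windows (85.7%), against 37.7% of all 27457 windows. Over all tested members of the list it was in 15 of 18 windows (83.3%). Lbr, Insig2 and Srebf2, which did not pass, held it too, so the box did not set apart the genes that fell. The letters TCACNCCAC of a sterol regulatory element, on either strand, were in 0 of the 14 and in 1.13% of all windows, and those of an AP-1 site, TGANTCA, were in 2 of the 14 and in 7.33% of all. These matches describe letters in a window and not bound sites. These 3 examples are shown 5' to 3' on the strand of the gene, chosen because they hold more than 1 CCAAT box and span an early, a middle and a late enzyme; capitals mark CCAAT or its reverse complement. Idi1 lies at chr17:66547475-66547774 (minus strand), Fdps at chr2:176804767-176805066 (minus strand) and Msmo1 at chr16:29746863-29747162 (plus strand).
Idi1: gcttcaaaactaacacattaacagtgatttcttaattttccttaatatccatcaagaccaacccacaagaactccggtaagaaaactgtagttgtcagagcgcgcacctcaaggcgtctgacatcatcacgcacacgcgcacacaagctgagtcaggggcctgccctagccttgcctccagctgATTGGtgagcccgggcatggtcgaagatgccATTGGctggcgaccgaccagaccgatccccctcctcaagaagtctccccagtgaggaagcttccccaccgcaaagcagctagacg
Fdps: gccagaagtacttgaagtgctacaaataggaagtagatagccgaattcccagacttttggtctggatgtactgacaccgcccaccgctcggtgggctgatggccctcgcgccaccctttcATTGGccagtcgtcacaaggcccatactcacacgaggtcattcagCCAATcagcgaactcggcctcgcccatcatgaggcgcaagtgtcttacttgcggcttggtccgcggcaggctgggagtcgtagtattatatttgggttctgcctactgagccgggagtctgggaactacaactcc
Msmo1: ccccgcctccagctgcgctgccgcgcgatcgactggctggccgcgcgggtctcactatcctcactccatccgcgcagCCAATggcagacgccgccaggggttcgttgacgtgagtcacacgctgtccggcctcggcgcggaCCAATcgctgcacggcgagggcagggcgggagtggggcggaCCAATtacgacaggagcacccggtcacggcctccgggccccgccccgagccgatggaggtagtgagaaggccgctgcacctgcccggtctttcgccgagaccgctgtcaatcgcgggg
For the 8 repair Schwann cell genes that rose and had a listed window, CCAAT was in 2 (25.0%) and TGANTCA in 0.

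Fatty acid and lipid genes fell more often than they rose, 16 against 5 of 38 tested, with a median change of -0.66. Their summed signal went the other way. It was 20342 in the SNL pool and 20556 in the SNL with GPN pool, against 14458.5 to 18867 in the uninjured pools. The elongases Elovl7 and Elovl6 fell by 2.03 (SE 0.17) and 1.94 (SE 0.20), and Acss2, which makes acetyl-CoA for lipid synthesis, by 1.75 (SE 0.14). Me1, malic enzyme, a source of NADPH for lipid synthesis, had 36.3 in the SNL pool and 43.4 in the SNL with GPN pool, against 128 to 214 in the uninjured pools, and fell by 1.84. Fabp4, a fatty acid-binding protein of adipocytes, had 114 and 154, against 414 to 1163, and fell by 2.09 (SE 0.35), with its highest value in the contralateral sham pool. In the other direction, the cholesterol exporter Abca1 had 153 and 144, against 20.1 to 41.0, and rose by 2.09 (SE 0.24, adjusted p = 1.67e-04). The desaturase gene Scd2 had overlapping groups and a change of -0.03, but its probe set of lowest p rose by 1.03 (adjusted p = 0.0304), so its probe sets disagree. Of these lipid genes, without the SNL pool, 9 fell and 2 rose, and without the SNL with GPN pool 12 fell and 2 rose. The muscle covariate left 13 falls and 2 rises, and the deposited scaling 10 and 3.

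Macrophage genes rose in 8 of 30 tested and fell in 1, with a median change of 0.43. Gpnmb, a glycoprotein of lipid-laden macrophages, had 369 in the SNL pool and 485 in the SNL with GPN pool, against 53.5 to 150.01 in the uninjured pools, and rose by 2.15 (SE 0.30, adjusted p = 7.00e-04). Lgals3, encoding galectin-3, had 1409.5 and 1372, against 250.02 to 564, and rose by 1.71 (SE 0.25). The Fc receptor gene Fcgr2b rose by 1.43, Lyz2 by 1.11 and the lysosomal protease gene Ctsd by 0.85. Spp1, osteopontin, which Schwann cells also make, had 852 and 1047, against 1706 to 2713, and fell by 1.08 (SE 0.18). The colony-stimulating factor receptor gene Csf1r, a defining macrophage marker, had 128 and 111 inside the uninjured range of 102 to 209.96. Summed over the list, signals were 7959 and 8084 in the ligated pools, against 4924 to 7129, and both sham pools, at 6702 and 7129, were the highest of the uninjured ones. With the muscle level as a covariate 2 members rose and the median change was 0.14, and with the GAPDH ratio as a covariate 3 rose. Leaving out the SNL pool left 3 rises, and leaving out the SNL with GPN pool left 2. The deposited scaling and median scaling left 3 rises each.

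Complement, the cascade of plasma proteins that tags debris and pathogens and that the study's title refers to, had 7 rises and no fall among 22 tested genes, with a median change of 0.44. Of the central component and its regulators, C3 had 166 in the SNL pool and 109.5 in the SNL with GPN pool, against 2.38 to 30.7 in the uninjured pools, and rose by 2.78 (SE 0.45, adjusted p = 0.002). Serping1, the inhibitor of C1, had 1469 and 1311, against 228 to 441, and rose by 2.05 (SE 0.24). Cfi, the protease that inactivates C3b, and Clu, clusterin, an inhibitor of the terminal complex, rose by 1.29 and 1.25. In all 4 the ligated pools were above every uninjured pool. Other regulators did not pass: Cd55, Cd59b and Cr1l had changes of -0.10, -0.26 and 0.15. Of the first component, C1qa, C1qc and C1r rose by 0.80, 1.09 and 0.91, while C1qb and C1s had changes of 0.55 and 0.87 that did not pass and overlapping groups. C2 (0.30), C4a (0.82), Cfb (0.68), Masp1 (0.18) and Cfp (0.32) did not pass either. Cfd, the factor D that adipocytes secrete, had 599 and 866, against 830.1 to 2158, with a change of -0.77 that did not pass. C6 and C8g of the terminal complex had changes of -0.19 and -0.03. The sham pools had summed complement signals of 7062 and 7416, between the ligated pools at 8475 and 8018 and the other uninjured pools at 4357 to 5623. With the muscle level as a covariate 4 members rose and the median change was 0.10. Leaving out the SNL pool left 2 rises and leaving out the SNL with GPN pool left 4. The deposited scaling and median scaling left 4 rises each. The list was chosen with earlier results known, so its count is not independent evidence.

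Antigen presentation was measured without a call. None of 9 MHC class II genes and none of 16 MHC class I and antigen processing genes passed, with median changes of 0.08 and 0.20. Cd74, the invariant chain of class II molecules, had 807 and 712 in the ligated pools, against 546 to 1071 in the uninjured pools, a change of 0.04 (SE 0.24). None of 17 lymphocyte, mast cell and neutrophil genes passed, with a median of -0.22. Of all genes 4.02% rose and 5.58% fell, so no call in lists of 9, 16 or 17 genes is near the share of all genes. In the cytokine and chemokine list 7 of 25 rose and 1 fell: Tnfrsf12a, the TWEAK receptor gene, rose by 1.63 (SE 0.22), Tgfb1 by 1.52, Cxcl10 by 1.41, Cxcl14 by 1.31 and Ccl2, which recruits monocytes, by 1.15. Ccl21 fell by 1.08, and its groups overlapped. Among cytokine genes 1 rose without the SNL pool, and without the SNL with GPN pool 2 rose. The muscle covariate left 2 rises, the GAPDH covariate 4 and the deposited scaling 3. Of 16 interferon response genes 3 rose, namely Gbp2 by 1.74 (SE 0.26), Ifitm1 by 1.67 (SE 0.20) and Irf8 by 0.91 (SE 0.14).

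Neuron and axon genes did not move as a group, but Nefm was among the largest rises. Nefm, the medium neurofilament gene of neurons, had 409 in the SNL pool and 293 in the SNL with GPN pool, against 16.9 to 50.2 in the uninjured pools, and rose by 3.31 (SE 0.32, adjusted p = 6.20e-05). Nefh, the heavy neurofilament gene, had 7.3 and 8.0, against 1.86 to 20.9, and a change of 0.07 (SE 0.48), at signals close to the pseudocount. Of 25 neuron and axon genes, Nefm, Map2 and Gap43 rose and Stmn3 and Sncg fell, with a median change of -0.21. Leaving out either ligated pool left 1 rise and no fall among them, and the muscle covariate left 2 rises and no fall. Tubb2b, a tubulin of growing cells, had 1451 and 1221, against 135 to 228, and rose by 2.86 (SE 0.19). Cell cycle genes rose in 7 of 31 and fell in none, with a median of 0.43: Gadd45a, a growth arrest and DNA damage gene, rose by 2.24, Ccnd1, cyclin D1, by 1.83, and the proliferation genes Rrm2, Ccnb2 and Top2a by 1.13, 0.85 and 0.82. Of the immediate-early list 4 of 21 rose, Atf3, Jun, Fos and Dusp6, while Egr1 had a change of 0.29 that did not pass. Leaving out the SNL pool left 2 cell cycle and 2 immediate-early rises, and leaving out the SNL with GPN pool left 3 and 2. With the muscle covariate the rises were 4 and 2.

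Other genes with the largest rises by the fixed rule were Baalc (3.03, SE 0.25), the sodium channel subunit Scn3b (2.83, SE 0.37), the transporter Slc22a23 (2.80, SE 0.22), the dynamin Dnm3 (2.63, SE 0.38), the Notch-related membrane protein Dlk1 (2.58, SE 0.18), the apolipoprotein Apoc1 (2.57, SE 0.27) and the kinase Plk2 (2.44, SE 0.25). The rule took only called genes in which both ligated pools lay beyond all 7 uninjured pools, so that separation was set by the choice. Mean uninjured signals of Dnm3 (6.52) and Scn3b (7.40) were close to the pseudocount, so the size of their changes depends on it.

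The neurotrophic list had 7 rises and 3 falls among 36, and 26 that did not pass, so its members did not move as a block. Beside Ngfr, Gfra1 and the neuregulin receptors, Fgf5 rose by 1.64 (SE 0.29). In the guidance and adhesion list 4 of 30 rose and 4 fell: Sema3e, the synaptic adhesion gene Cadm1 (1.38, SE 0.17) and the laminin receptor Itga7 (1.25, SE 0.20) were among those that rose. Cdh1, E-cadherin of the non-compact myelin junctions, had 47.4 and 50.7 in the ligated pools, against 182 to 237 in the uninjured pools, and fell by 2.00 (SE 0.15, adjusted p = 1.48e-05). Sema5a and Slit3 fell by 1.66 and 0.92. Another Slit3 probe set had a change of 0.47 that did not pass. Without the SNL pool the neurotrophic list had 4 rises and no fall and the guidance list 1 of each, and without the SNL with GPN pool 5 and 1, and 2 and 1. With the muscle covariate the neurotrophic list had 5 rises and 1 fall and the guidance list 3 and 2. Of 13 insulin-like growth factor genes only Igf2 passed, with Igf1 at a change of 0.55. These counts stand beside 4.02% of all genes that rose and 5.58% that fell.

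Channels and transporters fell in 7 of 21 and rose in none, with a median of -0.52. P2ry2, a purinergic receptor, had 29.0 and 36.1 in the ligated pools, against 82.6 to 205 in the uninjured pools, and fell by 1.83 (SE 0.29). The potassium channel genes Kcnk1 and Kcna1 (a channel of the axon beside the node of Ranvier) fell by 1.47 and 1.10. Scn7a, a sodium channel gene expressed by Schwann cells, fell by 1.05 and the glutamate transporter Slc1a3 by 0.86. None of the 21 passed without the SNL pool (by limma), and 3 fell without the SNL with GPN pool. The muscle covariate, the GAPDH covariate and the deposited scaling left 2 falls each.

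The largest falls by the fixed rule included several genes that belong to no list tested here. Of those described next, only Mt3 is on a list, that of heat shock and oxidative stress. Cnmd, chondromodulin, a cartilage and tendon glycoprotein, had 80.8 in the SNL pool and 118 in the SNL with GPN pool, against 850.3 to 1031 in the uninjured pools, and fell by 3.15 (SE 0.16, adjusted p = 8.31e-07). The cartilage collagen genes Col2a1 and Col9a1 fell by 2.83 (SE 0.29) and 2.73 (SE 0.22). Mt3, a metallothionein of the nervous system, had 152 and 156, against 978 to 1646, and fell by 2.96 (SE 0.18). The uninjured pools of Cnmd and Mt3 were close together, and the ligated pools stood far below them. Fez1, a kinesin adaptor, fell by 2.51 (SE 0.22). Krt5, a keratin, had 1.3 and 1.4 in the ligated pools, against 28.5 to 43.1, and Cmbl, Nell1 and Cdc42se2 had at most 4.30 in the ligated pools. The ligated values of these 4 genes are below the pseudocount, which limits the change on the log2 scale.

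Skeletal muscle genes fell in 5 of 29 with a median of -1.90, and here 1 pool decided the value. Eno3, the muscle enolase, had 1.43 in the SNL pool and 162 in the SNL with GPN pool, against 233 to 1300.04 in the uninjured pools, a change of -3.73 (SE 0.93). Tnnc2, fast troponin C, had 52.3 and 733, against 804 to 3429.5, a change of -2.73 (SE 0.76). Ckmt2, Pgam2 and Myh7 were the other falls, by 2.74, 2.19 and 1.25. Creatine kinase, Ckm, had 132 and 1540.1, against 969.96 to 5951, and did not pass. The SNL pool was far below all others, and the SNL with GPN pool was near or within the uninjured range. Without the SNL pool none of the 29 passed and the median was -0.59; without the SNL with GPN pool 14 fell and the median was -3.24. With the deposited scaling 18 of the 29 fell. With the GAPDH ratio as a covariate 1 fell.

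Matrix genes changed in both directions, where 4.02% of all genes rose and 5.58% fell. Of 42 extracellular matrix genes 3 rose and 6 fell, with a median of -0.11: Col18a1 rose by 1.29 (SE 0.20) and Thbs4, a thrombospondin, by 1.17 (SE 0.16), while Fbln2 fell by 1.68 (SE 0.19) and the basement membrane collagen Col4a1 by 1.33 (SE 0.16). The fibrillar collagen genes Col1a1, Col1a2 and Col3a1 had changes of -0.09, -0.01 and -0.22 that did not pass. Proteases and inhibitors rose in 4 of 22 and fell in none, led by A2m, alpha-2-macroglobulin, at 1.6 (SE 0.21), and Plat, tissue plasminogen activator, at 1.46 (SE 0.19). One of the other A2m probe sets had a change of -0.25 that did not pass. Timp1 and Adam17 rose by 0.73 and 1.08. With either ligated pool left out, 2 protease genes and 2 matrix genes rose, and 2 or 3 matrix genes fell. With the muscle covariate 2 protease genes rose, and 2 matrix genes rose and 7 fell; with the deposited scaling 2 protease genes rose, and 1 matrix gene rose and 2 fell.

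**Figure D4:**
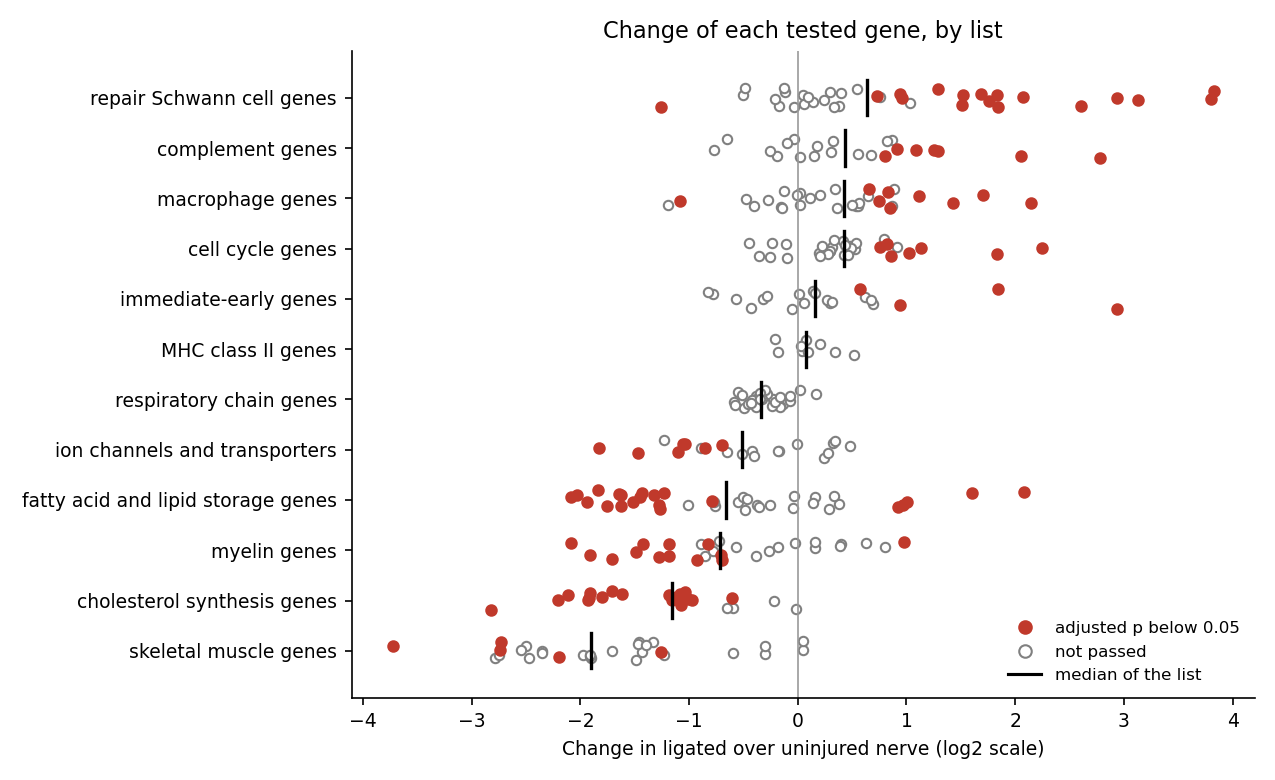
Each point is 1 tested gene, placed by its change on the log2 scale in ligated over uninjured nerve (2 pools against 7). Filled points have an adjusted p below 0.05 and black bars are medians of the lists. All but 2 of the 29 skeletal muscle genes and all 22 cholesterol synthesis genes lie left of 0, and the highest point is Sema3e at 3.83.

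The same treatments also gave pools of L5 dorsal root ganglia, where the cell bodies of the tied axons lie. The ligation change in ipsilateral nerve was set against that in ipsilateral L5 ganglion, taking the nerve minus ganglion difference within each treatment, 2 treatments against 3. Of 18395 probe sets tested, the difference was positive and past the threshold in 182 (0.989%) and negative in 155 (0.843%). These counts were 1248 and 158 with the deposited scaling, where the median difference over all probe sets was 0.56, and 0 and 0 when either ligated treatment was left out. Without 1 of the other treatments they lay between 31 and 54 and between 26 and 73.

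Ngfr changed by 3.63 in nerve and by -0.96 in ganglion, a difference of 4.58 (SE 0.27, adjusted p = 0.00572). In ganglia its signal was 479 with SNL and 555 with SNL and GPN, against 925 to 1155 in the 3 unligated pools, so it was lower there while it was higher in nerve. Sema3e, Sox2 and Gfra1 changed by 3.77, 3.12 and 2.55 in nerve and by -0.12, 0.33 and 0.69 in ganglion, and each difference passed. Nefm and Nefh changed by 3.04 and 0.52 in nerve and by -0.82 and -1.96 in ganglion. Atf3 changed by 2.96 and 2.78, a difference of 0.19 (SE 0.28) that did not pass, with an adjusted p of 0.780.

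Cholesterol synthesis genes had a median change of -1.34 in ipsilateral nerve and -0.11 in ganglion, and for 9 of the 22 tested the nerve change was past the threshold below that of the ganglion. Msmo1 changed by -1.90 in nerve and 0.13 in ganglion, and Insig1 by -2.29 and -0.43. Sqle changed by -2.16 and -0.70. Of 28 myelin genes 1 passed, Mal, at -1.89 in nerve and 0.09 in ganglion. Class II genes had medians of 0.11 in nerve and 1.86 in ganglion, with 5 of 9 passing. Cd74 changed by 0.11 in nerve and 3.13 in ganglion, where its signal was 1655 and 1415 with ligation, against 105 to 311. None of 22 complement genes passed the difference, with medians of 0.43 in nerve and 0.56 in ganglion. Of all 8875 genes 52 passed above and 81 below, so no call among 22 is near the share of all genes. C3 changed by 2.64 and 1.96. Skeletal muscle genes had medians of -1.81 and 1.05, and 13 of 29 passed, so muscle levels differed between pools in both tissues.

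**Figure D5:**
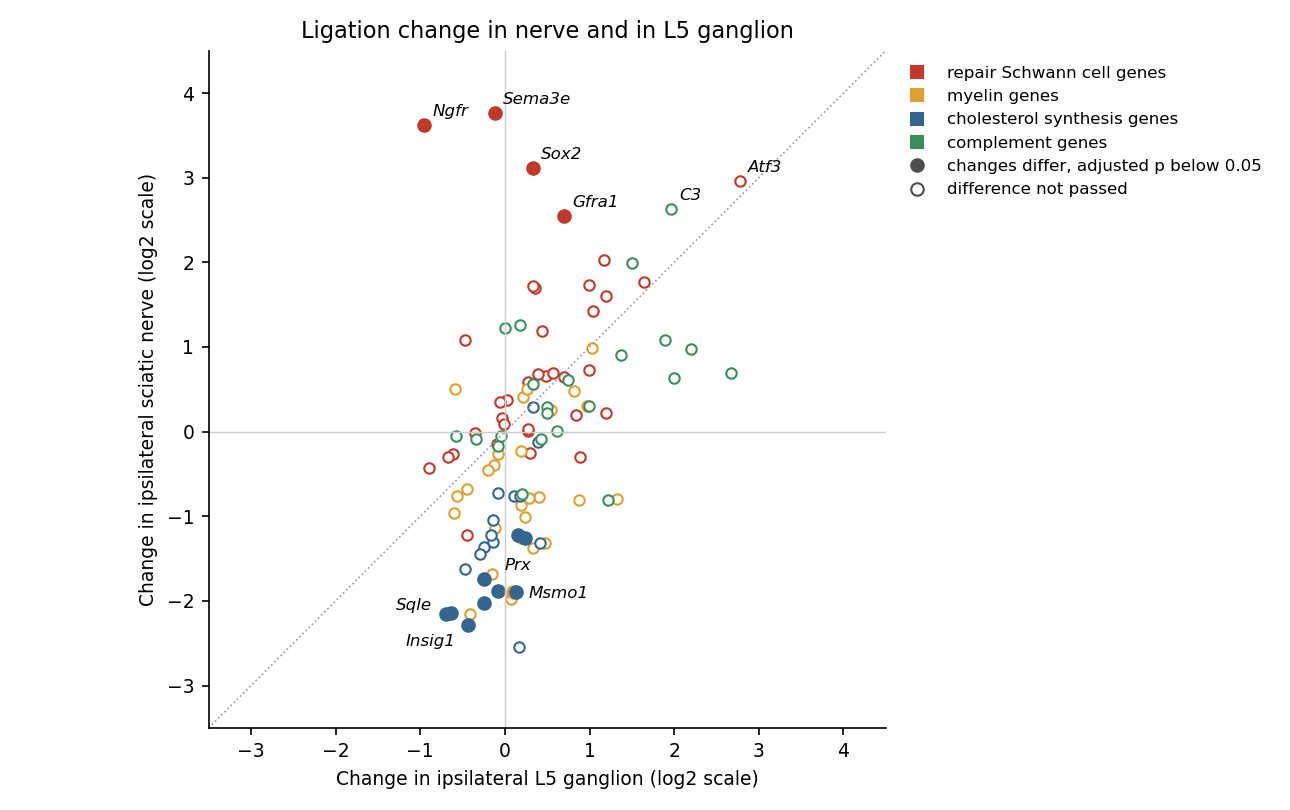
Each point is 1 gene, with its ligation change in ipsilateral sciatic nerve (vertical axis) and in ipsilateral L5 ganglion (horizontal axis), both on the log2 scale and from 2 ligated against 3 unligated pools. Colours give the gene list, filled points have changes that differ between the tissues at an adjusted p below 0.05, and the dotted line marks equal changes. Ngfr, Sema3e, Sox2 and Gfra1 lie high above the line, Atf3 lies near it, and the filled cholesterol synthesis genes lie below it.

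Within the ligated nerves, the pool with GPN and the pool with vehicle differed by a median of 0.17 on the log2 scale over all 9033 genes tested, and by more than 1 in 236 of them. Among the 867 genes called, which were selected in part for agreement of these pools, 13 differed by more than 1, and 5 of the 13 were on the skeletal muscle list. With 1 pool for each treatment, an effect of the drug within ligated nerve has no replicate.

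The contralateral nerve of SNL rats with GPN was counted as uninjured, and this was examined with calls made without it. For 686 probe sets higher in ligated nerve and 790 lower against the remaining 6 uninjured pools, this pool stood at a median of 3.64% and 3.15% of the way from the uninjured mean to the ligated mean. It lay above all 6 in 13.7% of the higher set and below all 6 in 21.1% of the lower set, against 11.8% and 12.4% of all probe sets. The series holds no contralateral nerve pool of SNL rats with vehicle.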

How the data were processed

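RNA pools of rat sciatic nerve were hybridised to U34 A, B and C arrays. The deposited values are intensity signals computed by the authors with MAS5, per the submitters' processing notes; no detection calls were used. The 3 arrays of a pool were joined (26379 probe sets, 177 of them controls and left out). Of these, 18178 had 1 gene symbol, 391 several and 7633 none in the platform annotation, and symbols were updated through RefSeq. For each array type the 9 nerve arrays were quantile-normalized, a pseudocount at the 20th percentile was added, log2 was taken, and probe sets above the 40th percentile of their array in at least 2 pools were kept. Both fits, the ligation change and the nerve minus L5 ganglion difference, used limma 3.58.1 (lmFit, eBayes with a trend) in R 4.3.3, two-sided, with a threshold of 0.05, and were tested on simulated data. The number of arrays limits the precision. Tables were made with Python 3.11.15.

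Named genes were the 5 markers, the 15 largest rises and 15 largest falls among called genes whose groups do not overlap, up to 6 called members of each of 27 gene lists, every tested member of the myelin, cholesterol, complement and repair Schwann cell lists, up to 3 members of other lists that did not pass, and up to 10 genes in each direction of the difference. Other members are named for comparison. The members and lists were chosen with earlier results of these data known.

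Alternatives were other scalings, pseudocounts and filters, no trend, other sets of uninjured pools, treatment as a block, covariates for side, gabapentin and muscle genes, and leaving out each pool. The GAPDH alternatives were added after seeing the data.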

Additional observations from a re-analysis of the deposited data

Results flagged for a closer look

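Over 130 genes (the markers, the largest changes and the myelin, cholesterol, complement and repair lists), 1 of the 7 uninjured pools stood apart by Dixon's test in 6, about the number that chance gives at 1 in 20. In the naive with GPN ipsilateral pool the signal was highest for C4a at 55.8 and for Erbb2 at 57.6, and lowest for Idi1 at 227.6. Masp1 was lowest in the contralateral naive pool at 23.8, Mvk lowest in the contralateral SNL with GPN pool at 30, and Sc5d highest in the ipsilateral sham pool at 115.7.

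The ligation change differed between nerve and L5 ganglion, by the test of the difference itself, for 47 named genes, 20 of which are the 10 of lowest p in each direction. In these 20 the nerve change exceeded the ganglion change for Ngfr by 4.58, Sema3e by 3.89, Dnm3 by 3.87, Nefm by 3.86, Lipa by 3.57, Dlk1 by 2.85, Sox2 by 2.79, Nefh by 2.48, Cd24 by 2.42 and Cadm1 by 2.04 on the log2 scale, and the nerve minus ganglion difference was negative for Tpm2 (-4.92), Npy (-4.90), Actn3 (-4.79), Cdc42se2 (-3.96), Apobec2 (-3.58), Klhl31 (-3.34), Cd74 (-3.02), Ckmt2 (-2.91), Cmbl (-2.72) and Csrp3 (-2.68). Of the other 27, the nerve change was greater for Apoc1 by 2.63, Slc22a23 by 2.30, Tubb2b by 1.98, Gfra1 by 1.86 and Map2 by 1.71. The difference was negative for the cholesterol genes Msmo1 (-2.03), Insig1 (-1.86), Tm7sf2 (-1.80), Lss (-1.78), Cyp51 (-1.51), Hsd17b7 (-1.50), Acat2 (-1.49), Sqle (-1.46) and Mvd (-1.38), the lipid genes Acss2 (-1.96) and Me1 (-1.54), and the class II genes RT1-Bb (-2.28), RT1-Da (-1.96), RT1-DMb (-1.50) and RT1-Db1 (-1.45). It was negative too for Col2a1 (-2.72), Mal (-1.99), Mt3 (-1.75) and P2ry2 (-1.73), and for the muscle genes Eno3 (-5.80), Ckm (-4.96) and Pgam2 (-3.32). Lipa, lysosomal acid lipase, changed by 2.44 in nerve and by -1.13 in ganglion, and Npy, a neuropeptide gene of injured sensory neurons, by -0.57 and 4.33. Tpm2, Actn3, Ckmt2 and Csrp3 are also genes of muscle, whose summed level varied between pools. Klhl31 and Apobec2 were uneven as well: in the unligated ganglion pools they ranged from 2.3 to 25.9 and from 2.2 to 17.5. Tpm2 ranged there from 11.1 to 256.4, and Csrp3 from 24.2 to 39.1. The part of muscle in these differences was not tested.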

How the results depend on the processing

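For the nerve comparison, with 784 probe sets higher and 856 lower, the counts given as higher and lower were 556 and 278 with the deposited scaling, 534 and 785 with median scaling, 379 and 448 with the 3 ipsilateral uninjured pools only, 539 and 608 with side as a covariate, 324 and 465 with muscle genes as a covariate, and 408 and 433 with the GAPDH ratio as a covariate, the last added after seeing the data. Leaving out each pool in turn gave 185 to 926 higher and 262 to 921 lower. Treatment as a fixed block with side left 29 and 47; only SNL with GPN has both a ligated and an uninjured nerve, so that fit sets this ligated pool against its own contralateral pool. In that fit the median change was 0.21 for repair Schwann cell genes, -0.89 for myelin genes, -1.58 for cholesterol synthesis genes and 0.28 for complement genes. All other alternatives stayed within 1.5 times. The labels give no replicate numbers; with treatment as a random block the counts were 789 and 855, and with the mean of both sides per treatment 863 and 831. Among 1640 calls none changed sign under any alternative except 6 under the fixed block; among the named genes that reversed, Nr1d1 had 0.0795 there (adjusted p = 0.964), and Scd2 had 1.03 with its probe set of lowest p. For the nerve minus ganglion difference, with 182 and 155, the counts were 1248 and 158 with the deposited scaling, 399 and 330 with a pseudocount of 16 and 64 and 61 with no filter, and leaving out a treatment gave 0 to 54 and 0 to 73. Of 140 named genes called, 26 were called under every alternative, among them Ngfr, Sox2, Sema3e, Atf3, Gfra1, Nefm, Sqle, Insig1, Lss, Msmo1, Mal, Mt3 and Cnmd. Prx lost its call only under the fixed block (adjusted p = 0.0568). A fit that leaves 1 ligated pool assumes that it varies like the uninjured pools.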

Other observations

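Among 15 clock and glucocorticoid response genes 3 fell and none rose, with a median change of -0.43: Tsc22d3, a glucocorticoid-induced gene, had 60.8 in the SNL pool and 106 in the SNL with GPN pool, against 179.8 to 468 in the uninjured pools, and fell by 1.66 (SE 0.34), and the clock output genes Dbp and Nr1d1 fell by 1.42 and 0.99. Of 28 heat shock and oxidative stress genes 1 rose and 2 fell, the quinone reductase Nqo1 by 1.16 beside Mt3, shares close to the 4.02% and 5.58% of all genes. None of 28 respiratory chain genes passed by limma, and 26 of them had negative changes that did not pass. Of 27 endothelial and mural cell genes Cldn5, a tight junction gene, fell by 1.15 (SE 0.21) and no other passed, which is near the share of all genes. Of 19 fibroblast and perineurial genes 2 rose and 2 fell, beside 4.02% and 5.58% of all genes. Pdpn and S100a4 rose by 1.04 and 0.64, and Dpt and Cd34 fell by 1.14 and 0.80. Other Dpt probe sets had changes of 0.02 and -0.62 that did not pass. None of 6 blood genes passed; Hba-a1 had 789 in the SNL pool and 2767 in the SNL with GPN pool, against 1914 to 3086, so the SNL pool was low for blood as for muscle. In the absence of the SNL pool no clock, endothelial or fibroblast gene passed by limma and 1 heat shock gene fell, and without the SNL with GPN pool 2 clock genes, 1 endothelial gene and 2 blood genes and 3 heat shock genes fell and 1 fibroblast gene rose. With the muscle covariate no clock or heat shock gene rose, no clock gene fell, and 2 fibroblast genes fell and none rose.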
